A study of Mus musculus with 20 samples.

Results

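The TRAV13 family is a group of V genes of the mouse T cell receptor (TCR) α chain, and its use was described in CD8 T cells of 4 genotypes. A clone was a member when its first listed V gene was a TRAV13 gene other than TRAV13-4-DV7, and its CDR3 was in frame and free of stop codons. The genes met were TRAV13-1, TRAV13-2 and TRAV13 genes with D or N in their names. TRAV13-4-DV7, which the TCR δ chain can also use, was not counted in. The family held 11159 of the 212832 in-frame TCRα clones of 17 mice. The whole series held 236491 TCRα clones, the non-productive ones and those of libraries not compared included. Members used 10 V genes, and a further 1451 non-productive clones carried the same genes. The family was selected on its share of in-frame clonotypes across the genotypes, so that share is given as a description with no test.

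A TCRα chain is made when a V gene is joined to a J gene, with trimming and added nucleotides at the junction. The junction encodes CDR3, the loop that contacts the peptide bound to MHC. The V genes lie upstream of a long row of J genes, and a cell can rearrange the locus again, joining a V gene farther upstream to a J gene farther downstream. In the mouse, the middle of the TRAV cluster is duplicated, and the copies carry D or N in their names. Non-productive clones, with a broken reading frame or a stop codon, generally come from the allele that does not encode the receptor on the cell, and serve as a view of V gene joining apart from selection of the receptor.

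WT mice carried both β5i, the immunoproteasome subunit encoded by Psmb8, and β5t, the thymoproteasome subunit of cortical thymic epithelial cells encoded by Psmb11. β5i-KO mice lacked β5i and β5t-KO mice lacked β5t. BIT mice had the Psmb11 coding sequence in place of that of Psmb8, so that β5t was made where β5i normally is and β5i was absent. All were male, on a C57BL/6 background and 9 to 12 weeks old, and the labels name no BIT line. The study worked with several engineered BIT lines and showed a single one of them except where it said otherwise. TCR libraries do not measure Psmb8 or Psmb11, so the genotypes rest on the labels. TCRβ-high CD4- CD8+ cells were sorted, 1000000 per mouse. The comparisons used 4 mice each of the WT, BIT and β5t-KO genotypes and 5 β5i-KO mice. Not compared were replicate 5 of WT, replicate 5 of β5t-KO and replicate 3 of BIT, whose library had 475 in-frame clonotypes. An error after ± is the SD over the mice of a group unless SE is written.

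Reads per library numbered 1983032 to 8480570 and unique molecules 14772 to 602397 in the 17 mice. These gave 656 to 28641 in-frame clonotypes, where a clonotype is a V gene, a J gene and a CDR3 nucleotide sequence in 1 mouse. Family clonotypes numbered 25 in β5t-KO replicate 2 and 1587 in β5i-KO replicate 3, so β5t-KO replicate 2 bears the least weight. Receptors of invariant NKT cells and MAIT cells, which the CD8 gate could hold, were rare. Clonotypes of the invariant NKT cell type (TRAV11 with TRAJ18) reached at most 0.0485% of a library, and those of the MAIT cell type (TRAV1 with TRAJ33) at most 0.152%. Clonotypes led by a TRDV gene made up 0.502% to 0.981%. They were counted among TCRα clones and do not measure γδ T cells, which were not assessed.

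The ends of 4 V genes are shown because CDR3 begins with them. Each is the last part of the coding segment on the plus strand of chromosome 14 (GENCODE vM39, GRCm39), with the part that opens CDR3 in capitals.
TRAV13-1: tcaggcacttatctcTGTGCTTTGGAAC
TRAV13-2: tcaggcacttatttcTGTGCTATAGATC
TRAV13D-1: tcaggcacttatctcTGTGCTATGGAAC
TRAV13D-2: tcaggcacttatctcTGTGCTATAGATC

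These capitals are the 3 germline openings of the family. The first was found in TRAV13-1 alone, the one of TRAV13-2 also in TRAV13D-2 and TRAV13N-2, and that of TRAV13D-1 in 6 genes in all. TRAV13-1 lies at chr14:53782471-53782982 and TRAV13D-2 at chr14:53180221-53180746, both as annotated V genes on the plus strand. Over the last 300 bases, TRAV13D-2 and TRAV13N-2 were 100% identical, and 82.2% of TRAV13D-2 clonotypes also listed TRAV13N-2. TRAV13D-3 and TRAV13N-3 were 99.7% identical, as were TRAV13D-1 and TRAV13N-1, so reads of these pairs could be split between them and their separate values are uncertain. TRAV13D-3 had no differing base from TRAV13-3, an annotated pseudogene, in 299 bases aligned beside 2 gaps. TRAV13-3 lies 425 kb from TRAJ61 and was assigned 0 clonotypes, so which of these genes the values given for TRAV13D-3 and TRAV13N-3 belong to is uncertain. TRAV13-1 and TRAV13-2 were assigned without such doubt, with 0.0963% and 0.292% of their clonotypes listing another V gene.

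The germline ends were largely kept in the junctions. The first 9 germline bases of CDR3 were intact in 81.0% of TRAV13-1 clonotypes, 76.4% of those of TRAV13-2, 74.6% of those of TRAV13D-2 and 79.9% of those of TRAV13D-1.

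TRAV13-1 was the main gene of the family, with 5190 clonotypes or 46.5% of its members over the 17 mice. TRAV13D-2 followed with 2562 clonotypes, TRAV13D-1 with 1212 and TRAV13-2 with 1029. TRAV13N-4 had 383, TRAV13N-3 331, TRAV13D-3 248 and TRAV13D-4 188 clonotypes. TRAV13N-1 had 15 and TRAV13N-2 had 1, too few to pass the filter on low counts, so 8 genes were tested. The genes also differed in the share of their clonotypes that were in frame and free of stop codons. This share was counted in TCR transcripts of sorted cells and is not how often a gene rearranges in frame. In-frame clonotypes made up 94.3% of all clonotypes of TRAV13D-1 and 92.6% of those of TRAV13-1, but 62.6% of those of TRAV13D-3, 70.9% of TRAV13N-3, 71.1% of TRAV13N-4 and 75.2% of TRAV13D-4. The median over 90 TRAV genes was 88.9%.

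As a share of in-frame clonotypes, the family made up 4.33, 4.43, 4.76 and 4.56% in WT replicates 1 to 4. It made up 5.32, 4.54, 5.89, 5.91 and 4.06% in β5i-KO replicates 1 to 5, and 5.71, 3.81, 5.58 and 6.20% in β5t-KO replicates 1 to 4. In BIT replicates 1, 2, 4 and 5 it made up 5.45, 5.67, 4.73 and 5.51%. The WT mice lay close together and each of the other genotypes held mice within or below their range. The means were 4.52 ± 0.19% in WT mice, 5.14 ± 0.82% in β5i-KO mice, 5.33 ± 1.04% in β5t-KO mice and 5.34 ± 0.42% in BIT mice. Ordered by the mean, WT was lowest, and no neighbours in that order differed beyond their spread. Counting alone leaves the share of β5t-KO replicate 2 between 2.59% and 5.57%, and that of BIT replicate 1 between 5.20% and 5.72% (95% Wilson intervals, which cover counting error only). Without β5t-KO replicate 2 the difference of the β5t-KO from the WT mean went from 0.805 to 1.31 percentage points and these groups no longer overlapped. BIT and WT mice did not overlap with reads in place of clonotypes, or without WT replicate 3 or BIT replicate 4.

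**Figure D1:**
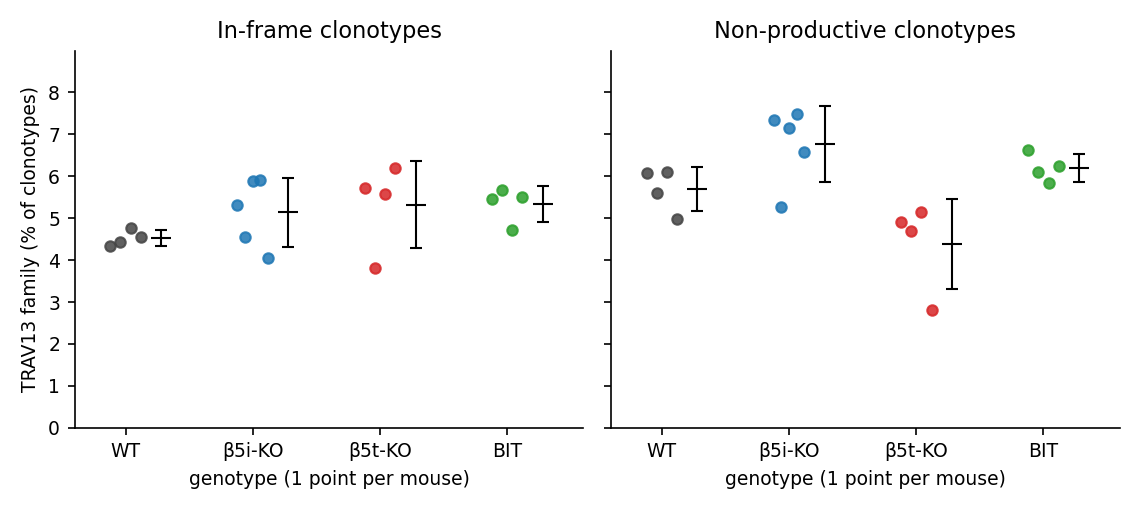
TRAV13 family as a percentage of in-frame clonotypes (left) and of non-productive clonotypes (right), with 1 point per mouse and the mean ± SD of each genotype in black. With all 17 mice in-frame shares overlap between all genotypes, while the non-productive shares of the 4 β5t-KO mice (2.80% to 5.16%) lie below those of the 4 BIT mice (5.83% to 6.62%).

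The non-productive clonotypes, which the choice of the family did not use, gave another order. The family made up 6.09, 5.61, 6.10 and 4.98% of non-productive clonotypes in WT replicates 1 to 4. In β5t-KO replicates 1 to 4 the values were 4.90, 4.69, 5.16 and 2.80%, and in BIT replicates 1, 2, 4 and 5 they were 6.62, 6.11, 5.83 and 6.25%. In β5i-KO replicates 1 to 5 they were 7.35, 5.26, 7.15, 7.50 and 6.59%. The β5t-KO mice lay below all BIT and all β5i-KO mice, and the other pairs of genotypes overlapped. β5t-KO and β5i-KO mice were not among the pairs tested. The means were 5.69 ± 0.53% in WT mice, 6.77 ± 0.91% in β5i-KO mice, 4.39 ± 1.07% in β5t-KO mice and 6.20 ± 0.33% in BIT mice. The difference of 1.82 percentage points between BIT and β5t-KO mice was tested by an exact, two-sided permutation of mice, which gave p = 0.0286 (adjusted p 0.0952 over 4 comparisons), the smallest that 4 against 4 mice can give. The same exact test against WT gave p = 0.0714 for the β5i-KO mice, p = 0.0571 for the β5t-KO mice and p = 0.143 for the BIT mice (adjusted p 0.0952, 0.0952 and 0.143). No comparison passed after adjustment, and with BIT replicate 3 counted in, BIT against β5t-KO passed with an exact permutation p of 0.00794 (adjusted p 0.0317). With out-of-frame clones only, leaving out those with a stop codon, the BIT and β5t-KO mice overlapped, the difference was 1.64 percentage points and the exact permutation p was 0.0857 (adjusted p 0.286). The β5t-KO values rest on few clonotypes, 3 of 64 in replicate 2 and 6 of 214 in replicate 4.

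The ratio of the in-frame to the non-productive share was 0.80 ± 0.086 in WT mice, 0.763 ± 0.097 in β5i-KO mice and 0.861 ± 0.054 in BIT mice. In β5t-KO mice it was 1.32 ± 0.61 (SD, n = 4), and the single values were 1.16, 0.813, 1.08 and 2.21. The ratio shares the in-frame values with the choice of the family and was not tested.

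Single genes were compared with edgeR over all 93 V genes that passed the filter. TRAV13-1, the most used member, did not pass the test in any comparison. It made up 2.59, 2.51, 2.53 and 2.24% of in-frame clonotypes in WT replicates 1 to 4, and 2.31, 2.61, 2.67, 2.51 and 1.83% in β5i-KO replicates 1 to 5. In β5t-KO replicates 1 to 4 it made up 2.49, 2.59, 2.63 and 2.12%, and in BIT replicates 1, 2, 4 and 5 it made up 2.44, 2.55, 2.09 and 2.60%. All groups overlapped. Its log2 fold changes from WT were -0.02 ± 0.12 (SE, β5i-KO), 0.02 ± 0.14 (SE, β5t-KO) and -0.02 ± 0.12 (SE, BIT), and BIT differed from β5t-KO mice by -0.04 ± 0.13 (SE), with edgeR adjusted p of 0.906 to 0.969.

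TRAV13D-2 was the family gene called by the test, in β5t-KO against WT, and the call was lost in 6 of the 8 fits that left out a mouse. It made up 0.618, 0.921, 0.929 and 0.942% of in-frame clonotypes in WT replicates 1 to 4, and 1.51, 0.457, 1.37 and 2.07% in β5t-KO replicates 1 to 4. Replicate 2 of the β5t-KO mice, with 25 family clonotypes, lay below all WT mice and the other 3 lay above them. The log2 fold change was 0.71 ± 0.21 (SE), or 1.64-fold, with an edgeR adjusted p of 0.0300. Among all V genes tested, 7.53% were called in β5t-KO against WT. As the rule used these values, the call is a description of the gene and not separate evidence about the family. It was lost without any 1 of the 4 WT mice, without β5t-KO replicate 1 or without β5t-KO replicate 4, with edgeR adjusted p from 0.0136 to 0.145 over the 8 mice left out in turn. With clones that list a single V gene it was 0.96 (edgeR adjusted p 0.178), resting on the 456 clonotypes that list TRAV13D-2 alone. With unique molecules it was 0.62 (edgeR adjusted p 0.461) and with reads 0.52 (edgeR adjusted p 0.556).

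In BIT mice TRAV13D-2 made up 1.26, 1.34, 1.18 and 1.29%, all above the WT mice, with a log2 fold change of 0.50 ± 0.18 (SE, edgeR adjusted p 0.105). In β5i-KO mice it made up 1.31, 0.662, 1.30, 1.58 and 0.946%, which overlaps WT, with a log2 fold change of 0.42 ± 0.18 (SE, edgeR adjusted p 0.230). BIT and β5t-KO mice differed by -0.22 ± 0.19 (SE, edgeR adjusted p 0.517). With clones that list a single V gene, the estimates in β5i-KO and BIT mice turned to -0.34 and -0.31.

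TRAV13D-1 made up 0.386, 0.242, 0.465 and 0.487% of in-frame clonotypes in WT replicates 1 to 4. In BIT replicates 1, 2, 4 and 5 it made up 0.594, 0.691, 0.521 and 0.604%, all above WT, and the log2 fold change was 0.50 ± 0.20 (SE, edgeR adjusted p 0.148). In β5i-KO mice it made up 0.610, 0.386, 0.802, 0.570 and 0.494%, with a log2 fold change of 0.54 ± 0.20 (SE, edgeR adjusted p 0.175). In β5t-KO replicates 1 to 4 it made up 0.425, 0.457, 0.404 and 0.803%, so that 3 mice lay within the WT range and 1 lay above it, and the log2 fold change was 0.14 ± 0.27 (SE, edgeR adjusted p 0.762). In none of these comparisons did TRAV13D-1 pass the test. Without β5i-KO replicate 2, TRAV13D-1 and TRAV13D-2 both passed in β5i-KO against WT (edgeR adjusted p 0.0308 for each).

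TRAV13-2 made up 0.353 ± 0.084% in WT mice, 0.496 ± 0.119% in β5i-KO mice, 0.422 ± 0.287% in β5t-KO mice and 0.488 ± 0.090% in BIT mice. Its β5t-KO mean holds a mouse with none, replicate 2, where 0 of 656 clonotypes used it. TRAV13D-4, at 0.055 ± 0.012% in WT mice the rarest gene tested, made up 0.087 ± 0.017% in BIT mice, which did not overlap WT. The log2 fold changes of TRAV13-2 and TRAV13D-4 against WT ran from 0.35 to 0.93, with edgeR adjusted p of 0.230 to 0.338. TRAV13D-3, TRAV13N-3 and TRAV13N-4 had log2 fold changes against WT from -0.16 to 0.65, with edgeR adjusted p of 0.243 to 0.981.

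**Figure D2:**
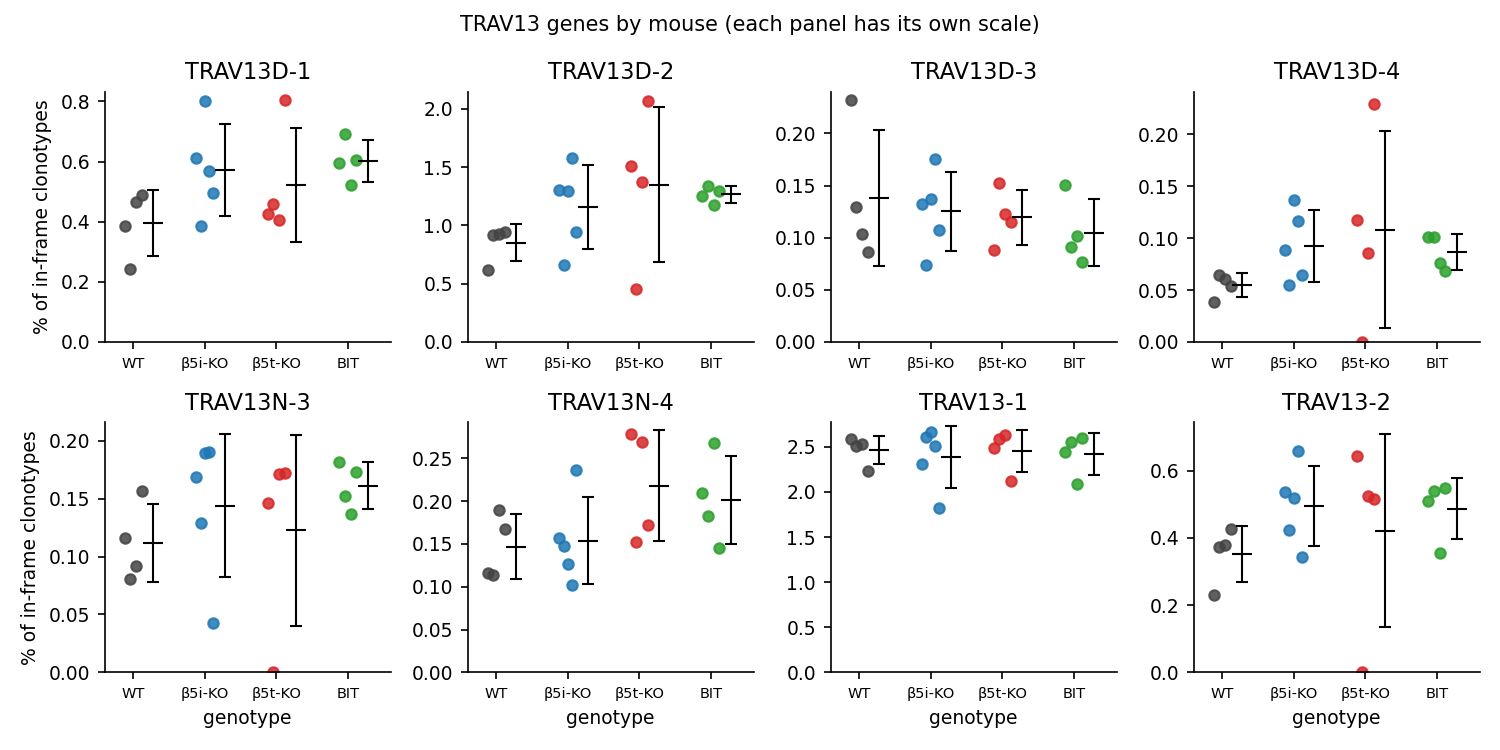
Each of the 8 tested TRAV13 genes as a percentage of in-frame clonotypes, with 1 point per mouse and the mean ± SD of each genotype in black; panels are ordered along the locus, from the gene farthest from the J genes to the nearest, and each has its own scale from 0. TRAV13-1 stays between 1.83% and 2.67% in all 17 mice, and the BIT mice lie above the WT mice for TRAV13D-1, TRAV13D-2 and TRAV13D-4.

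Over the 8 genes, those with a positive log2 fold change against WT numbered 6 (β5i-KO), 7 (β5t-KO) and 6 (BIT), with medians of 0.42, 0.44 and 0.41. The medians over all 93 V genes were 0.09, 0.15 and 0.13. The 3 comparisons share the same 4 WT mice, so their directions are not separate observations. The choice of the family also used these in-frame values. The directions, medians, overlaps and calls of its genes are thus a description and not separate evidence about the family. In BIT against β5t-KO mice 2 of 8 were positive, with a median of -0.10 against 0.04 over all V genes. In BIT against WT, 3 family genes did not overlap between groups, against 15.1% of all V genes tested. No family gene did so in another comparison, against 0% (β5i-KO, WT), 7.53% (β5t-KO, WT) and 18.3% (BIT, β5t-KO) of all V genes.

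Calls were few in any case. In β5i-KO against WT, BIT against WT and BIT against β5t-KO edgeR called 0 of 8 family genes, and 1.08%, 2.15% and 5.38% of all V genes. At an unadjusted p under 0.05, edgeR gave 4, 2 and 0 family genes in these comparisons, all higher, against 13, 20 and 19 of all 93 V genes. DESeq2 called 0 family genes in each, and 0, 1 and 4 of all V genes. In β5t-KO against WT the only family gene under an unadjusted p of 0.05 was TRAV13D-2, which DESeq2 also called, against 18 of all V genes under that p and 8 called by DESeq2. In 4 of the 32 pairs of gene and comparison the log2 fold change and the difference of mean percentages had opposite signs. These were TRAV13-1 in β5t-KO against WT, TRAV13-2 in BIT against β5t-KO, and TRAV13D-3 and TRAV13N-4 in β5i-KO against WT.

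TRAV13-4-DV7, the gene of the subgroup that was left out of the family, made up 0.733 ± 0.240% in β5t-KO mice, 0.317 ± 0.060% in WT mice and 0.430 ± 0.093% in BIT mice. Its log2 fold change in β5t-KO against WT was 1.32 ± 0.22 (SE, edgeR adjusted p 4.3e-05), and these groups did not overlap. In BIT against β5t-KO it was -0.99 ± 0.20 (SE, edgeR adjusted p 0.00096), and these groups overlapped. Both passed the test, in comparisons where 7.53% and 5.38% of all V genes were called.

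The V subgroups whose log2 share of clonotypes ran most like that of the family over the 17 mice were TRAV6 (Pearson r of 0.757), TRAV11 (0.698) and TRAV4-4-DV10 (0.698), of 29 subgroups compared. The 17 points are shares of the same libraries, which differ in depth and genotype.

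The J genes joined to the family were not used in choosing it, though the in-frame shares of its V genes were. J genes are numbered from TRAJ61, nearest the V genes, down to TRAJ1, so a high mean TRAJ number stands for joining close to the V genes. Within the family, this number differed with the position of the V gene. TRAV13-1 and TRAV13-2, which lie 609 and 520 kb from TRAJ61, had mean TRAJ numbers of 33.0 and 36.3 over their clonotypes. Of the copies tested, which lie 791 to 1303 kb away, TRAV13D-4 had 20.8, TRAV13D-2 22.4, TRAV13N-3 23.6, TRAV13D-1 23.7 and TRAV13N-4 24.9. Clonotypes assigned to TRAV13D-3 had 28.9, and over the stretch compared their reads could also be those of the pseudogene TRAV13-3, which lies nearer the J genes than TRAV13-1 and TRAV13-2. TRAJ1 to TRAJ10 took 17.4% of TRAV13D-2 clonotypes, but 4.51% of TRAV13-1 clonotypes and 2.04% of TRAV13-2 clonotypes. TRAJ41 to TRAJ61 took 5.97% of TRAV13D-2 clonotypes, against 29.1% and 35.4% of those of TRAV13-1 and TRAV13-2.

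The contrast held in each mouse. The D and N copies together had a mean TRAJ number of 23.2 and TRAV13-1 with TRAV13-2 one of 33.2, averaged over mice, and the copies were lower in 17 of 17 mice. The difference was -10.0 ± 1.5 (SD, n = 17), with a sign-flip permutation p of 1.5e-05 (exact, two-sided, adjusted p 4.6e-05 over 3 features), the smallest that 17 mice can give. This grouping of the genes was chosen after their values were seen. The copies are not all copies of TRAV13-1 and TRAV13-2. Over the last 300 bases TRAV13D-4 was 98.3% identical to TRAV13-4-DV7, and TRAV13D-3 had no differing base from TRAV13-3. TRAV13-4-DV7 and TRAV13-3 were not in the group of TRAV13-1 and TRAV13-2. CDR3 was shorter by 0.195 amino acids in the copies (exact sign-flip permutation p of 0.00063, adjusted p 0.00094, shorter in 15 of 17 mice), while the number of nucleotides between V and J differed by -0.041 (exact sign-flip permutation p of 0.459, adjusted p 0.459).

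**Figure D3:**
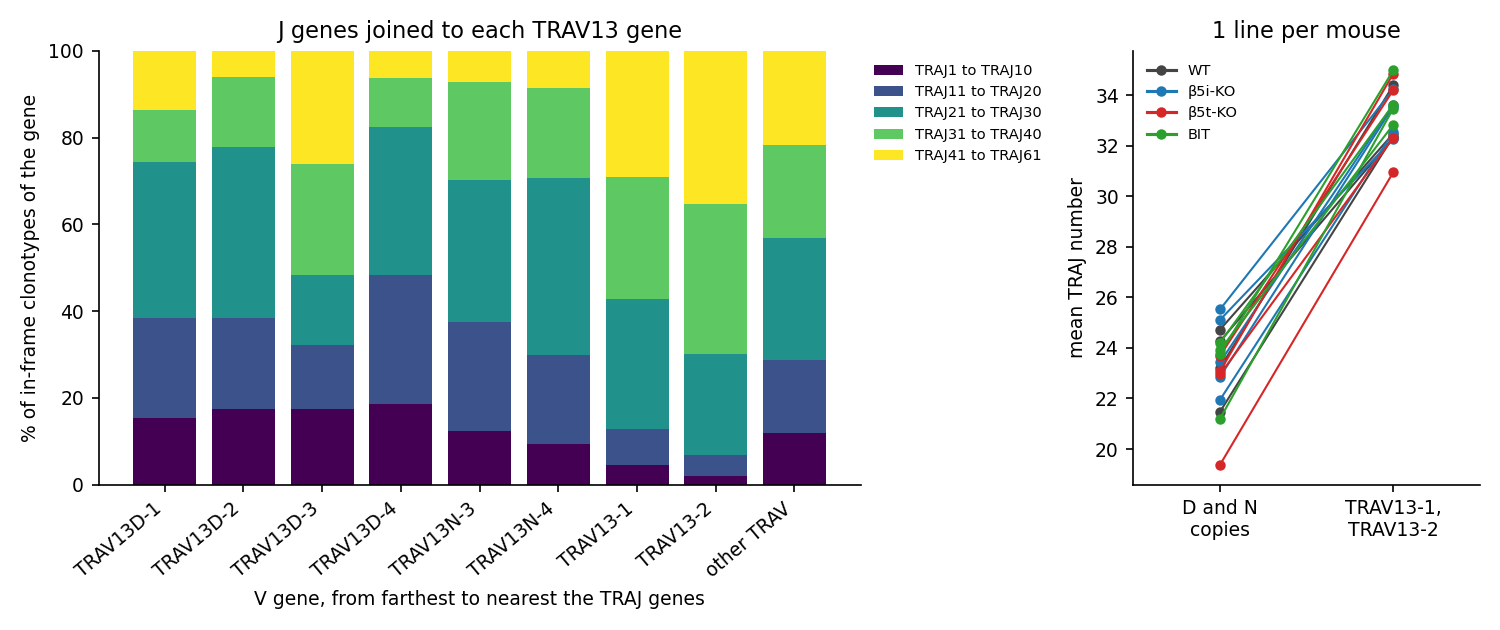
Left, share of each gene's in-frame clonotypes joined to 5 stretches of the TRAJ row, with the V genes ordered from farthest to nearest the J genes and all other TRAV clonotypes as the last bar. Right, mean TRAJ number of the D and N copies and of TRAV13-1 with TRAV13-2, 1 line per mouse in the colour of its genotype, on an axis that does not start at 0; all 17 lines rise.

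By genotype, the copies had mean TRAJ numbers of 23.4 ± 1.4 in WT mice, 23.8 ± 1.5 in β5i-KO mice, 22.3 ± 2.0 in β5t-KO mice and 23.3 ± 1.4 in BIT mice. For TRAV13-1 with TRAV13-2 they were 32.9 ± 1.0, 33.2 ± 0.8, 33.1 ± 1.8 and 33.7 ± 0.9 in the same order. The genotypes differed by less than their spread. The copies made up 37.6 ± 3.3% of family clonotypes in WT mice, 43.7 ± 5.9% in β5i-KO mice, 44.5 ± 10.4% in β5t-KO mice and 45.7 ± 2.3% in BIT mice. In BIT mice the share was 45.8, 45.5, 48.4 and 42.9%, all above the WT mice at 34.8, 35.0, 38.9 and 41.6%. In β5t-KO mice it was 45.1, 32.0, 43.4 and 57.4%, which lies on both sides of WT. These shares were not tested.

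For the family as a whole, the mean TRAJ number was 29.3 ± 1.1 in WT mice, 29.0 ± 1.0 in β5i-KO mice, 28.3 ± 1.5 in β5t-KO mice and 28.9 ± 1.1 in BIT mice. In all other TRAV clonotypes of the same mice it was 27.6 ± 0.7, 28.3 ± 0.2, 29.8 ± 0.4 and 28.2 ± 1.1. Family minus other clonotypes was 2.67, 1.97, 1.01 and 1.12 in WT replicates 1 to 4 and -0.49, -2.90, -0.09 and -2.28 in β5t-KO replicates 1 to 4. The family thus lay above the other clonotypes in the 4 WT mice and below them in the 4 β5t-KO mice. The difference between these genotypes was -3.13 (exact permutation of mice, p = 0.0286, adjusted p 0.114 over 20 tests), at the smallest possible p, and BIT differed from β5t-KO mice by 2.17 with the same exact permutation p and adjusted p. The share of clonotypes with TRAJ numbers above 40 ran the same way, with a family value below that of the other clonotypes by 5.12 percentage points in β5t-KO (SD 3.04, n = 4) and above it by 1.56 in WT mice (SD 1.99, n = 4), at an exact permutation p of 0.0286 (adjusted p 0.114). None of these passed after adjustment. The family value also depends on its mix of V genes, as the D and N copies had lower TRAJ numbers than TRAV13-1 and TRAV13-2. That mix is part of the in-frame values used in choosing the family. These tests are thus not wholly separate from that choice.

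Among single J genes, TRAJ56 stood out. It lies near the V end of the J row, at chr14:54396720-54396782 (GRCm39). It was joined to 34 of 2008 family clonotypes in WT, 24 of 3751 in β5i-KO, 6 of 979 in β5t-KO and 65 of 4421 in BIT mice. By mouse, it accounted for 3.57, 1.82, 1.67 and 1.42% of family clonotypes in WT replicates 1 to 4 and 0.831, 0.405, 0.630, 0.248 and 0.529% in β5i-KO replicates 1 to 5. In β5t-KO replicates 1 to 4 the values were 0.769, 0, 0.658 and 0%, and in BIT replicates 1, 2, 4 and 5 they were 1.86, 1.61, 1.39 and 1.02%. All β5i-KO and all β5t-KO mice lay below all WT and all BIT mice. Of all J genes in the family, 2.44% (β5i-KO, WT), 9.76% (β5t-KO, WT) and 7.32% (BIT, β5t-KO) did not overlap between groups in this way. The 2 values of 0 were 0 of 25 and 0 of 108 clonotypes, which allow shares of up to 12.0% and 2.78%.

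In all other clonotypes TRAJ56 was not lower in these genotypes. It made up 1.44 ± 0.18% in WT mice, 1.61 ± 0.11% in β5i-KO mice, 2.06 ± 0.30% in β5t-KO mice and 1.66 ± 0.20% in BIT mice. The family value relative to that of the other clonotypes was lower than in WT by a log2 difference of -1.59 ± 0.40 (SE) in β5i-KO mice, with an adjusted p of 0.0040 from the edgeR interaction of compartment and genotype, and this call held with each of the 9 mice left out in turn, at edgeR adjusted p of 0.0026 to 0.0317. In β5t-KO mice the difference was -1.99 ± 0.58 (SE, edgeR adjusted p 0.0299), but the call was lost without any 1 of 6 of the 8 mice (WT replicates 1, 2 and 4, and β5t-KO replicates 1, 3 and 4), with edgeR adjusted p up to 0.266. TRAJ56 was the only J gene called of 41, or 2.44%, in each of these comparisons. The median dispersion of this fit was 0.00095, so these SE and adjusted p rest largely on counts of clonotypes and little on the spread between mice. In BIT against WT the difference was -0.41 ± 0.33 (SE, edgeR adjusted p 0.951), and in BIT against β5t-KO mice 1.58 ± 0.56 (SE, edgeR adjusted p 0.101). In these 2 comparisons edgeR called 0 of 41 J genes, with 0 and 5 at an unadjusted p under 0.05, and DESeq2 was not run on the interaction.

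Within the family alone, TRAJ56 fell in β5i-KO against WT by 1.40 on the log2 scale (SE 0.42, edgeR adjusted p 0.0394), where 2.44% of J genes were called. This call was lost with DESeq2 (adjusted p 0.0609) and without any 1 of 8 of the 9 mice, at edgeR adjusted p of up to 0.156. The exception was β5i-KO replicate 1. In β5t-KO against WT the log2 fold change was -1.46 ± 0.62 (SE, edgeR adjusted p 0.391). edgeR called 0 of 41 J genes in β5t-KO against WT, BIT against WT and BIT against β5t-KO, with 4, 0 and 6 at an unadjusted p under 0.05, and DESeq2 called 0 in each. Most of the family clonotypes with TRAJ56 used TRAV13-1, with 28 of 34 in WT, 16 of 24 in β5i-KO, 5 of 6 in β5t-KO and 44 of 65 in BIT mice.

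**Figure D4:**
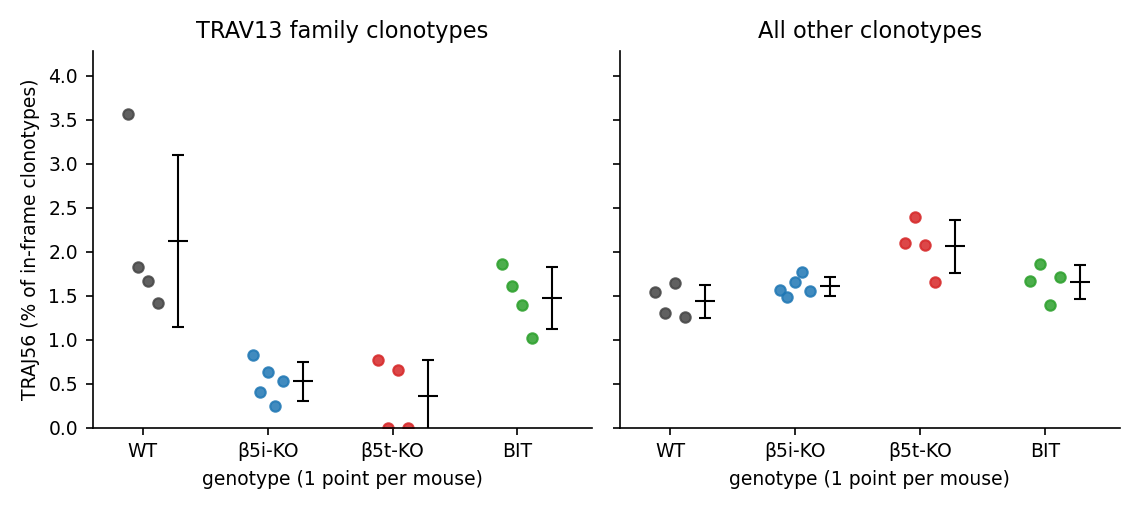
TRAJ56 as a percentage of TRAV13 family clonotypes (left) and of all other in-frame clonotypes (right), with 1 point per mouse and the mean ± SD of each genotype in black. In the family the β5i-KO and β5t-KO mice lie at 0.831% or less and the WT and BIT mice at 1.02% or more; in the other clonotypes all mice lie between 1.25% and 2.40%. The lower SD bar of the β5t-KO mice in the family reaches past 0 and is cut there.

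Apart from genotype, the family joined some J genes more and others less often than the other clonotypes did. Of 41 J genes, 21 or 51.2% were called by edgeR over the 17 mice, 10 higher and 11 lower in the family. TRAJ7 was lowest relative to the other clonotypes, with 1.10 ± 0.83% of family clonotypes against 2.82 ± 0.37% (SD, n = 17), lower in 15 of 17 mice, a log2 ratio of -1.43 ± 0.14 (SE, edgeR adjusted p 7.9e-20). TRAJ53 had a log2 ratio of -1.32 ± 0.25 (SE, edgeR adjusted p 1.4e-06), lower in 16 of 17 mice, and TRAJ12 one of -0.75 ± 0.12 (SE, edgeR adjusted p 6.4e-08), lower in 14 of 17. TRAJ39 and TRAJ22 were higher, in 15 and 13 of 17 mice, with log2 ratios of 0.55 ± 0.11 (SE, edgeR adjusted p 1.8e-05) and 0.42 ± 0.08 (SE, edgeR adjusted p 8.5e-07). TRAJ22 was joined to 959 family clonotypes. The median dispersion of this fit was 0.00095, so these calls, SE and adjusted p rest largely on counts of clonotypes and little on the spread between mice. The numbers of mice given show how far each direction was shared.

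**Figure D5:**
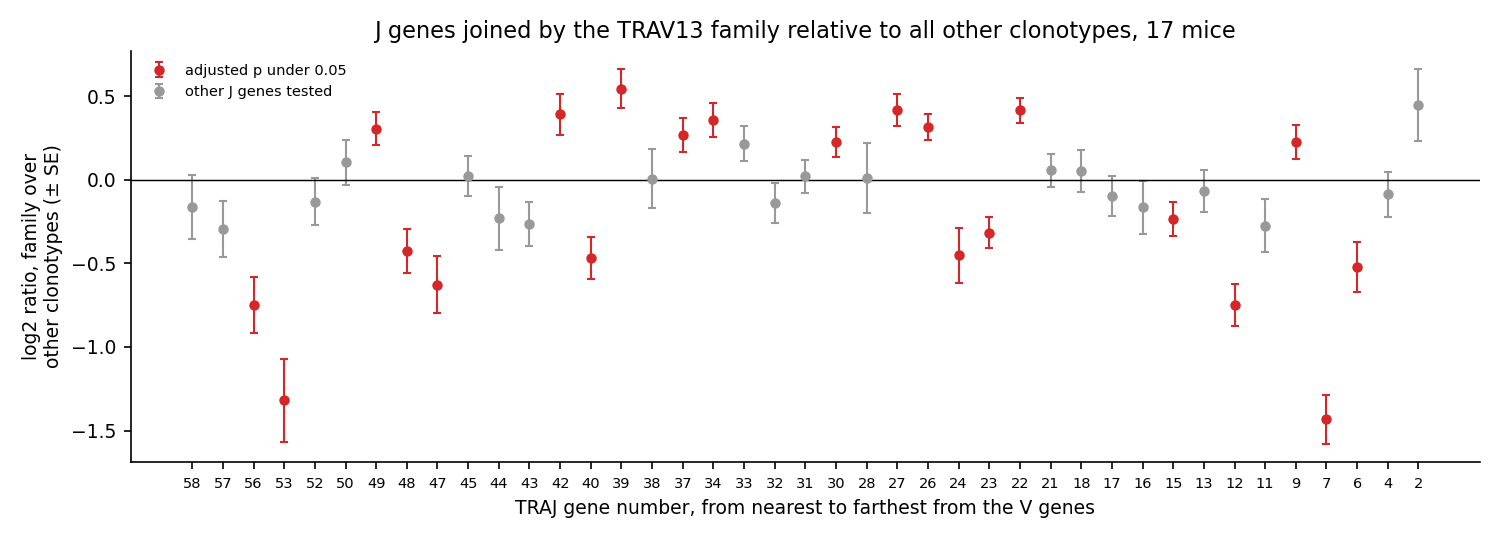
Log2 ratio of each J gene's share among TRAV13 family clonotypes to its share among all other clonotypes (edgeR, 17 mice, points with SE), ordered from the J gene nearest the V genes to the farthest. The 21 J genes called lie on both sides of 0 and along the whole row, from TRAJ7 at -1.43 to TRAJ39 at 0.55. The SE and calls rest largely on counts of clonotypes.

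The CDR3 of the family was shorter than that of the other clonotypes. It averaged 13.3 amino acids against 13.6, shorter in 17 of 17 mice by 0.351 ± 0.126 (SD, n = 17), with an exact sign-flip permutation p of 1.5e-05 (adjusted p 3.8e-05 over 5 features). Its clonotypes listed several V genes less often, 20.5% against 34.3% on average, in 17 of 17 mice (exact sign-flip permutation p of 1.5e-05, adjusted p 3.8e-05). This listing depends on the V gene, with 0.0963% for TRAV13-1, which holds 46.5% of the family. The difference therefore describes which V genes the family holds. For the nucleotides between V and J the family differed from the other clonotypes by 0.0042, with an exact sign-flip permutation p of 0.923 (adjusted p 0.923), and for the TRAJ number by 0.459 (exact permutation p of 0.219, adjusted p 0.274).

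The mean CDR3 length of the family was 13.3 amino acids in each genotype, with exact permutation p of 0.257 to 1 in the 4 comparisons (adjusted p 0.686 to 1). That of the other clonotypes was longer in β5t-KO mice (13.77 to 13.87) than in WT mice (13.53 to 13.61), a difference not tested. Family minus other clonotypes was -0.506 ± 0.161 for β5t-KO, -0.341 ± 0.044 for β5i-KO, -0.288 ± 0.063 for WT and -0.272 ± 0.077 for BIT mice. These gaps overlapped in each of the 4 comparisons and none passed, with exact permutation p of 0.0857 to 0.714 (adjusted p 0.214 to 0.794). Family clonotypes had fewer unique molecules on average than other clonotypes in 17 of 17 mice. The ratio was 0.937, 0.956, 0.931 and 0.974 in WT replicates 1 to 4 and 0.841, 0.677, 0.931 and 0.866 in β5t-KO replicates 1 to 4, so that β5t-KO was lower, with its highest value just under the lowest in WT. By exact permutation of mice p was 0.0286 (adjusted p 0.274 over 24 tests), which did not pass. Family clonotypes that listed several V genes made up 16.6 ± 5.3% in WT mice and 24.4 ± 2.5% in BIT mice, at the same exact permutation p and adjusted p. This share follows the mix of V genes, as 82.2% of TRAV13D-2 clonotypes listed several and 0.0963% of those of TRAV13-1 did. That mix is part of the in-frame values used in choosing the family, so this p is not separate evidence.

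The most abundant CDR3 sequences show what the junctions looked like. The 5 family sequences with the highest mean over the 17 libraries are given as nucleotides, with the bases that match the germline V gene in capitals and the rest in lower case.
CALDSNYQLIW: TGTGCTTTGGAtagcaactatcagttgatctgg
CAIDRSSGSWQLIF: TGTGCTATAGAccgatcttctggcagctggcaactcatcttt
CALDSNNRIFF: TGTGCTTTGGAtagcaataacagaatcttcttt
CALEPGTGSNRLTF: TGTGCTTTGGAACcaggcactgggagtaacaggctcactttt
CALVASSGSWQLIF: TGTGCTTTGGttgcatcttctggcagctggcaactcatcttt

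Of these, 4 used TRAV13-1 and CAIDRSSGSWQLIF used TRAV13D-2. The J genes were TRAJ33 for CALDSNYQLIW, TRAJ22 for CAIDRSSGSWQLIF and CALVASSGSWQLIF, TRAJ31 for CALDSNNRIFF and TRAJ28 for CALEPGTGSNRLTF. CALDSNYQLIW was the family sequence found in most mice, 13 of 17, and was written in 7 nucleotide forms. In reads per 1000000 in-frame reads (CPM) it stood at 543, 169, 304 and 294 in WT replicates 1 to 4, 0, 19.2, 149, 106 and 0 in β5i-KO replicates 1 to 5, 189, 0, 387 and 0 in β5t-KO replicates 1 to 4, and 13.4, 398, 148 and 234 in BIT replicates 1, 2, 4 and 5. It was thus present in all WT and BIT mice and missing from some β5i-KO and β5t-KO mice. Some of these values rest on few unique molecules. There were 2 in β5i-KO replicate 4, 8 in β5i-KO replicate 2 and 4 in BIT replicate 1, against 177 in WT replicate 4. Its log2 fold change against WT was -2.58 ± 2.42 (SE, edgeR adjusted p 1) in β5i-KO and -1.18 ± 2.52 (SE, edgeR adjusted p 1) in β5t-KO mice.

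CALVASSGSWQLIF shows how 1 mouse can set a mean. It stood at 1249 CPM in β5t-KO replicate 2 and at 0 in the other 3 β5t-KO mice, while in WT replicates 1 to 4 it stood at 0, 209, 59.2 and 145 CPM. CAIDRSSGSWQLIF reached 1288 CPM in β5t-KO replicate 4, against 0 to 213 in the other 3 β5t-KO mice and 0 to 232 in WT. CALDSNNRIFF was highest in β5t-KO replicate 4 at 744 CPM and in WT replicate 1 at 719 CPM, and was at 0 in WT replicates 2 and 3. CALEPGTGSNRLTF was at 161 to 367 CPM in the 4 BIT mice and at 0 in 3 of 4 β5t-KO mice, with a log2 fold change in BIT against β5t-KO mice of 2.56 ± 2.76 (SE, edgeR adjusted p 0.625).

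In all, 195 family sequences of 4957 reached 10 CPM in at least 3 mice of a genotype. edgeR called 0 of 195 in β5i-KO, β5t-KO and BIT against WT, and in BIT against β5t-KO, where 0.0202%, 0.0202%, 0.0202% and 0.0807% of all sequences were called. At an unadjusted p under 0.05, edgeR gave 64 family sequences in β5i-KO against WT (53 higher), 85 in β5t-KO against WT (19 higher), 77 in BIT against WT (66 higher) and 111 in BIT against β5t-KO mice (106 higher). Of all 4957 sequences, 1139, 2163, 1145 and 2501 reached this level. The median log2 fold changes, in the same order, were 0.26, -0.97, 0.57 and 5.65 over all 4957 and 0.60, 0, 1.25 and 8.70 over the 195. A sequence entered through any genotype in which it reached 10 CPM. The directions therefore cannot be told apart from the filter and the depth of the libraries. DESeq2 called 59, 80, 64 and 111 of the 195, and 1010, 2076, 900 and 2494 of all 4957. The median dispersion of the edgeR fit was 10.4. In data simulated at this dispersion for β5t-KO against WT, edgeR recovered 0 of 200 sequences changed 64-fold among 4957, so the edgeR counts of 0 and the adjusted p of single sequences say nothing on whether these sequences changed. β5t-KO libraries held 656 to 8168 in-frame clonotypes and WT libraries 2589 to 18470, so an absent sequence and one not sampled cannot be told apart.

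Of 7352 distinct CDR3 amino acid sequences of the family, 5784 were found in 1 mouse and 1568, or 21.3%, in more than 1. Among other TRAV sequences 25.6% of 105773 were found in more than 1 mouse. In 10 or more mice there were 15 family sequences (0.204%) and 1031 other ones (0.975%), and the number of mice for the most shared was 13 in the family and 17 elsewhere. How far a sequence is shared depends on the depth of the libraries, so these shares are a description.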

How the data were processed

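Sorted CD8 T cells came from lymph nodes and spleens by the protocol, while the labels name lymph nodes. TCR transcripts were amplified with unique molecular identifiers, and clones were assembled by the authors using MiXCR; its version and settings are not given in the sources used here, and mm10 is the build in the submitters' processing notes. The deposited tables give raw counts of reads and unique molecules per clone and no coordinates, so positions and V gene ends were read from GENCODE vM39 on GRCm39. TCRβ tables were not used.

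Each clone took its first listed V and J gene and was counted once as a clonotype. V and J genes needed 5 clonotypes in 4 libraries. Counts were tested with edgeR 4.0.16 (quasi-likelihood, library totals, all 4 genotypes in one fit, Benjamini-Hochberg over all features, threshold 0.05) in R 4.3.3, with DESeq2 1.42.0 as an alternative. Other values were tested with exact permutation tests in Python 3.11.15 (NumPy 2.4.6, pandas 2.3.3, SciPy 1.17.1). J genes of the family were also set against those of all other clonotypes with mouse as a block. CDR3 sequences were tested on reads per V subgroup and CDR3, at 10 CPM or more in 3 libraries of a genotype. The scripts were tested on simulated data. With 2-fold changes simulated in β5t-KO against WT, edgeR recovered 14 of 20 V genes, with 2 false calls. Of 10 J genes changed 2-fold within the family it recovered 5, with 0 false calls. A V or J gene that was not called can therefore still have changed.

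Named were all V genes of the rule that passed the filter, the J genes called (no more than 5 in a comparison, by p), the 5 CDR3 sequences with the highest mean CPM and the 3 most similar V subgroups. The members, lists and tests were chosen with earlier results of these data known. Exact permutation p-values measure the spread between mice. Those of edgeR also rest on counting error, the more so the fewer the clonotypes. Its median dispersion was 0.0145 for V genes and 0.0086 for J genes within the family. For J genes set against those of other clonotypes it was 0.00095. The edgeR p-values of TRAJ56, with 6 to 65 family clonotypes per genotype, thus rest largely on counting. So do those of the J genes called in the family against the other clonotypes. Of 136 pairs of libraries, 0 were identical. Alternatives were TMM, DESeq2, no filter, molecules or reads in place of clonotypes, clones listing a single V gene, clones with at least 2 molecules, thinning to 13519 molecules, fits of only the groups compared, BIT replicate 3 kept in, TRAV13-4-DV7 counted in, out-of-frame clones only, distinct CDR3 sequences, blocking on the replicate number, and leaving out single mice.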

Additional observations from a re-analysis of the deposited data

Results flagged for a closer look

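Of 100 groups of 4 or 5 mice tested, 14 held a mouse that stood apart from the others by Dixon's test at its 95% critical value, where chance gives about 5% of groups. The reason was not tested in any of them. For gene shares of in-frame clonotypes, TRAV13D-1 stood at 0.803% in β5t-KO replicate 4 against 0.404% to 0.457% in the other β5t-KO mice, and TRAV13D-2 at 0.618% in WT replicate 1 against 0.921% to 0.942% in the other WT mice. TRAV13N-3 was at 0.0% in β5t-KO replicate 2, a library with 25 family clonotypes, against 0.146% to 0.172% in the other β5t-KO mice. In the same library the family's CDR3 averaged 13.6 amino acids against 13.2 in each of the others, 8.0% of its clonotypes listed several V genes against 21.1% to 23.1%, and its D and N copies had a mean TRAJ number of 19.4 against 23.0 to 23.7. The copies' mean TRAJ number was 21.2 in BIT replicate 4 against 23.8 to 24.2 in the other BIT mice, and that of TRAV13-1 with TRAV13-2 was 34.4 in WT replicate 1 against 32.3 to 32.5 in the other WT mice.

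Among the abundant CDR3 sequences, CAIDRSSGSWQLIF stood at 1288 CPM in β5t-KO replicate 4 against at most 213 in the other β5t-KO mice, and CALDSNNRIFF at 719 CPM in WT replicate 1 against at most 77.2 in the other WT mice. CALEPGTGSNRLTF stood apart in 3 groups, at 552 CPM in β5i-KO replicate 2 against at most 156, at 153 CPM in β5t-KO replicate 3 against 0, and at 367 CPM in BIT replicate 2 against 161 to 189. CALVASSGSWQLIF stood at 1249 CPM in β5t-KO replicate 2 and was at 0 in the other β5t-KO mice.

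A contrast between genotypes differed between the family and all other clonotypes for TRAJ56, with log2 differences of -1.59 in β5i-KO against WT (edgeR adjusted p 0.0040) and -1.99 in β5t-KO against WT (edgeR adjusted p 0.0299).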

How the results depend on the processing

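β5t-KO replicate 2 held the fewest clonotypes of the mice compared. After thinning to equal molecules TRAV13D-2 still passed in β5t-KO against WT (edgeR adjusted p 0.0259). TRAV13 gene calls in β5t-KO against WT fell from 1 to 0 with unique molecules, reads or clones listing a single V gene, rose from 0 to 1 in BIT against WT with only the groups compared (TRAV13D-2, log2 fold change 0.49, edgeR adjusted p 0.0154), and rose from 0 to 1 in BIT against β5t-KO with single V clones (TRAV13D-2, -1.27, edgeR adjusted p 0.0181). J gene calls in the family in β5i-KO against WT fell from 1 to 0 with DESeq2. CDR3 calls rose from 0 to 59, 80, 64 and 111 with DESeq2 (β5i-KO, β5t-KO and BIT against WT, then BIT against β5t-KO) and from 0 to 104 with TMM in BIT against β5t-KO. With BIT replicate 3, the non-productive difference of BIT from β5t-KO was 1.71 percentage points and passed the test. With out-of-frame clones only it was 1.64 and did not pass. The causes were not tested. The in-frame family share, which was not tested, was higher than in WT on average in the 3 other genotypes in every setting tried. The family was selected on this share, the settings recount the same mice, and the groups overlapped in most settings. The constant direction is therefore a description and not separate evidence. With single mice left out, V gene calls ran from 0 to 2 in β5i-KO against WT (2 without β5i-KO replicate 2) and from 0 to 1 in β5t-KO against WT, J gene calls in the family from 0 to 1 in β5i-KO against WT, and J gene calls relative to other clonotypes from 0 to 1 in β5t-KO against WT.

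The signs that turned were of log2 fold changes that did not pass the test with either setting. TRAV13-1 in β5t-KO against WT was -0.10 with TMM, -0.067 with DESeq2, -0.14 with molecules, -0.092 with reads, -0.071 with single V clones and -0.029 after thinning. TRAV13-1 in BIT against WT was 0.039 with the replicate block, 0.00074 with single V clones and 0.0030 with at least 2 molecules. TRAV13-1 in BIT against β5t-KO was 0.030 with the replicate block, 0.058 with molecules, 0.051 with reads and 0.072 with single V clones. TRAV13-2 in BIT against β5t-KO was 0.098 with molecules and 0.11 with reads. TRAV13D-2 with single V clones was -0.34 in β5i-KO and -0.31 in BIT against WT, and 0.063 with molecules in BIT against β5t-KO. TRAV13D-3 in β5i-KO against WT was -0.0075 with molecules. TRAV13D-3 in β5t-KO against WT was 0.24 with molecules, 0.62 with reads, 0.19 with single V clones, 0.17 with at least 2 molecules and 0.18 after thinning. TRAV13D-3 in BIT against WT was 0.023 with the replicate block and 0.20 with at least 2 molecules, and in BIT against β5t-KO 0.18 and 0.028 with the same settings. TRAV13N-3 in BIT against β5t-KO was -0.10 with single V clones, -0.12 with at least 2 molecules and -0.25 after thinning. TRAV13N-4 was -0.049 after thinning in BIT against WT, and 0.19 with molecules and 0.18 with reads in BIT against β5t-KO.

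With single mice left out, signs also turned within these ranges. TRAV13-1 ran from -0.074 to 0.045 in β5i-KO against WT, from -0.030 to 0.070 in β5t-KO against WT, from -0.069 to 0.050 in BIT against WT and from -0.086 to 0.026 in BIT against β5t-KO. TRAV13-2 in BIT against β5t-KO ran from -0.24 to 0.024, and TRAV13D-1 in β5t-KO against WT from -0.024 to 0.29. TRAV13D-3 ran from -0.21 to 0.15 in β5t-KO against WT, from -0.32 to 0.12 in BIT against WT and from -0.30 to 0.14 in BIT against β5t-KO.

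Pairing of mice by replicate number was not seen in V gene shares. Over 22 same-numbered pairs the correlation of deviations from group means ran from -0.353 to 0.248, with 6 above 0.1. Over 86 other pairs it ran from -0.450 to 0.448, with 24 above 0.1. These correlations cannot show whether same-numbered libraries were prepared together. With the number as a block, TRAV13 gene calls stayed at 0, 1, 0 and 0 in the 4 comparisons and J gene calls in the family at 1, 0, 0 and 0.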
